A study of Homo sapiens with 4 samples.

Results

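The HOXA genes HOXA3, HOXA5, HOXA6, HOXA7, HOXA9, HOXA10 and HOXA11, together with MEIS1 and PBX3, form the homeobox program of MLL-rearranged leukemia, and their mRNA levels were compared in MV4-11 cells with and without CEBPG knockdown. The 9 genes were chosen by name, every RefSeq row carrying one of these symbols was taken, and the rows of a gene were summed in each library. All 9 had a row, and they accounted for 14 of the 28780 RefSeq rows and for 9 of 16490 genes. MV4-11 is a human acute myeloid leukemia line of myelomonocytic type that carries a KMT2A-AFF1 (MLL-AF4) fusion and an internal tandem duplication of FLT3, and every library shares both. Control cells carried the negative-control hairpin sh-NC (2 libraries), and knockdown cells carried sh-CEBPG#3, 1 hairpin against CEBPG (2 libraries). Both hairpins were delivered by a puromycin-selected lentiviral vector, and the sources used here do not say whether replicate libraries were infected or cultured separately. The p-values therefore rest only on the spread between these libraries, modelled across genes, and this spread may be technical.

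HOXA proteins are homeodomain transcription factors that hold early hematopoietic cells in an immature, self-renewing state, and the genes of the posterior cluster are normally shut down as myeloid cells mature. MLL fusion proteins bind the HOXA cluster and MEIS1 and keep them transcribed. MEIS1 and PBX3 belong to the TALE homeodomain family. They bind DNA together with HOXA proteins, MEIS1 stabilizes HOXA9 at enhancers, and PBX3 takes part in the same complexes.

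Upon CEBPG knockdown MEIS1 and HOXA3 fell most among the 9 genes, to 48.0% and 54.5% of the control mean. The other 6 HOXA genes were lower by smaller amounts, and PBX3, the remaining cofactor, had a mean of 114% of control. In limma, with Benjamini-Hochberg adjustment over all genes, 8 of the 9 genes were lower at an adjusted p under 0.05 and none was higher. The count was 4 without sh-CEBPG#3 replicate 2, and 3 (MEIS1, HOXA3 and HOXA11) when low genes were not filtered out or when the most abundant RefSeq row stood for each gene. Over all 12142 genes tested, 42.2% had an adjusted p under 0.05, with 23.8% lower and 18.5% higher, so a call by itself was common in this comparison. Without the filter 4093 of 16490 genes were called, and with the most abundant row 2864 of 11992. In both of these fits HOXA5, HOXA6, HOXA7 and HOXA9, which have a single RefSeq row each, kept the same fold changes. No member passed an unadjusted p under 0.05 together with an absolute log2 fold change above 1, which 3.41% of all genes did (1.05% in the lower direction). With a pseudocount of 0.1 in place of 1, MEIS1 passed this threshold (-1.04), and the number of lower genes went from 128 to 337. All 9 genes had a mean above the filter of 0.5 FPKM in each group. Values are FPKM (fragments scaled to exon length and to the number of mapped reads), fold changes are on the log2(FPKM + 1) scale, and this scale understates the change of low genes.

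The targeted gene checks the labels. CEBPG had 30.4 and 33.6 FPKM in control cells against 19.2 and 17.1 FPKM upon knockdown, so 56.8% of the control level remained. The FPKM totals ranged from 364353 to 389766, and read depth is unknown. Of 11 myelomonocytic markers 10 were listed and ANPEP was not. CD33, SPI1, LYZ, MPO, FLT3 and FUT4 were each at 26.8 FPKM or more in every library. ITGAM lay between 7.74 and 8.70 FPKM, PTPRC between 7.55 and 9.89 FPKM and CD14 between 0 and 1.09 FPKM. Of the 9 markers tested 5 were higher upon knockdown and none was lower in limma, where 18.5% of all genes tested were higher and 23.8% lower. The 3 markers with the largest fold changes were LYZ, CSF1R (mean 4.47 against 8.51 FPKM) and MPO (75.5 against 116.7 FPKM). The listed markers of B (2 of 3), erythroid (1 of 4) and fibroblast cells (2 of 3) summed to between 1.07 and 1.73 FPKM per library. No T cell or epithelial marker was listed.

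MEIS1, the TALE cofactor that is limiting for HOXA9-driven leukemia in many models, was at 6.65 and 7.34 FPKM in control cells. In the sh-CEBPG#3 libraries it had 3.42 and 3.29 FPKM. The groups did not overlap, and the difference was several times the spread within either group. The difference on the log2 scale was -0.87 (standard error 0.10, 95% interval -1.09 to -0.66, adjusted p = 8.31e-05 in limma), which placed MEIS1 at the 1.99th percentile of all genes tested. It kept an adjusted p under 0.05 in limma under all 8 alternatives and without each library in turn, and it was the only member called when each RefSeq row was tested by itself (adjusted p = 0.0315 in limma), where 8.24% of 18624 rows were called.

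PBX3, which binds DNA with HOXA9 and MEIS1, did not share this decrease. Its summed level was 18.5 and 19.5 FPKM in control cells against 23.2 and 20.1 FPKM upon knockdown. Both knockdown libraries lay above both controls. The log2 fold change of 0.18 did not pass the test (standard error 0.09, 95% interval -0.02 to 0.37, adjusted p = 0.134 in limma). With quantile normalization the value was 0.20 and passed (adjusted p = 0.0393 in limma). The ratio of PBX3 to MEIS1 FPKM was 2.78 and 2.66 in control cells against 6.76 and 6.12 upon knockdown.

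PBX3 is the sum of 4 RefSeq rows. The non-coding row NR_024123 had 9.09 and 10.8 FPKM in control cells against 13.2 and 12.6 FPKM upon knockdown, with no overlap. The main coding row NM_006195 had 8.53 and 7.87 FPKM in control cells against 9.33 and 7.02 FPKM upon knockdown, where the knockdown libraries lay on either side of the controls. The higher summed level therefore sat in the non-coding row. Neither row passed when rows were tested by themselves, with a log2 fold change of 0.35 for NR_024123 (adjusted p = 0.146 in limma) and -0.02 for NM_006195 (adjusted p = 0.964). The rows share exons, and how the authors' program divided reads among them is not given in the sources used here.

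**Figure D1:**
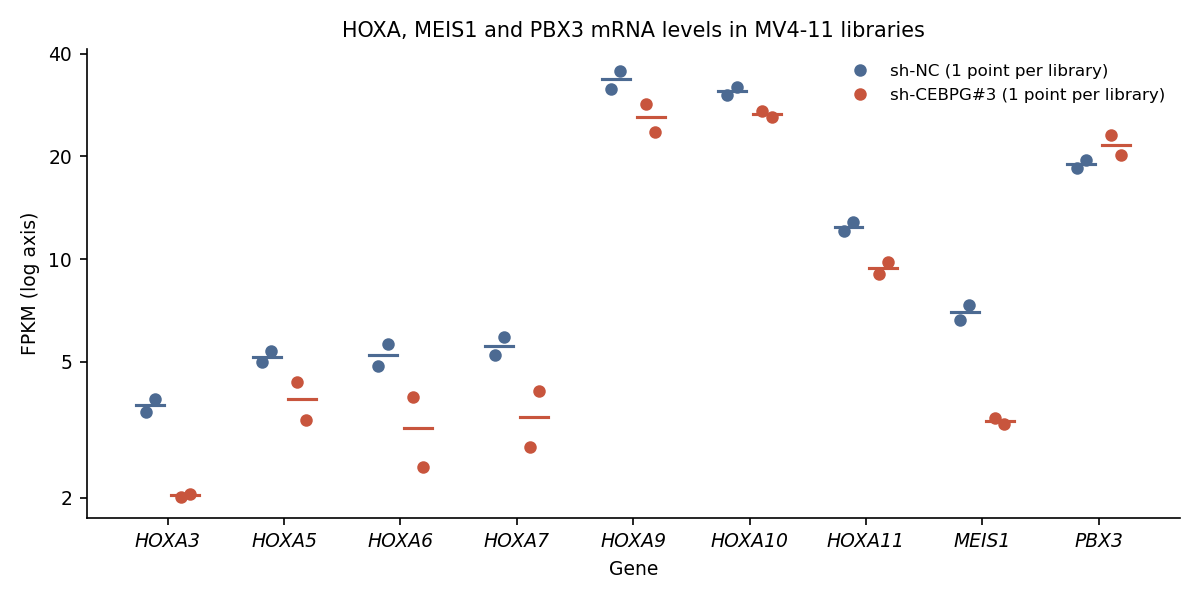
FPKM of the 9 genes on a log axis, with 1 point per library and a bar at the mean of each group of 2. The sh-CEBPG#3 points lie below the sh-NC points for 8 genes, while PBX3 lies above them by a small margin.

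HOXA9, the member most closely tied to leukemia maintenance, had the highest mean level in control cells. It had 31.5 and 35.7 FPKM in control cells against 28.5 and 23.6 FPKM upon knockdown. The mean was 33.6 ± 2.91 FPKM against 26.1 ± 3.47 FPKM (SD, n = 2 each), which is 77.6% of control. The groups did not overlap, but the nearest libraries were closer to each other than the libraries within either group. The difference on the log2 scale was -0.36 (standard error 0.10, adjusted p = 0.0167 in limma), and it did not pass without sh-CEBPG#3 replicate 2 (-0.23, adjusted p = 0.168 in limma).

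HOXA10, the neighbouring posterior gene, had the smallest decrease of the 8. Its summed level was 30.3 and 32.0 FPKM in control cells against 27.1 and 26.1 FPKM upon knockdown, or 85.5% of control. The difference on the log2 scale was -0.22 (standard error 0.08, adjusted p = 0.0400 in limma). It passed without sh-NC replicate 1, and not without any of the other 3 libraries (highest adjusted p = 0.211 in limma). The coding row NM_018951 went from 24.5 and 24.9 FPKM to 22.7 and 21.8 FPKM. The non-coding row NR_037939 went from 5.75 and 7.10 FPKM to 4.39 and 4.31 FPKM, and neither row passed by itself (adjusted p = 0.246 and 0.120 in limma). The readthrough gene HOXA10-HOXA9 had 1.19 and 0.404 FPKM in control cells against 0.275 and 0.120 FPKM upon knockdown, and was under the filter. Its reads can be shared with HOXA9 and HOXA10.

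HOXA11, a posterior gene best known for limb and kidney patterning, had 12.1 and 12.8 FPKM in control cells against 9.04 and 9.82 FPKM upon knockdown. Each group spanned under 1 FPKM and the groups were well apart. The log2 fold change of -0.37 (standard error 0.09, adjusted p = 0.00720 in limma) passed under all 8 alternatives, and leaving out sh-CEBPG#3 replicate 1 gave -0.31 (adjusted p = 0.0521 in limma).

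**Figure D2:**
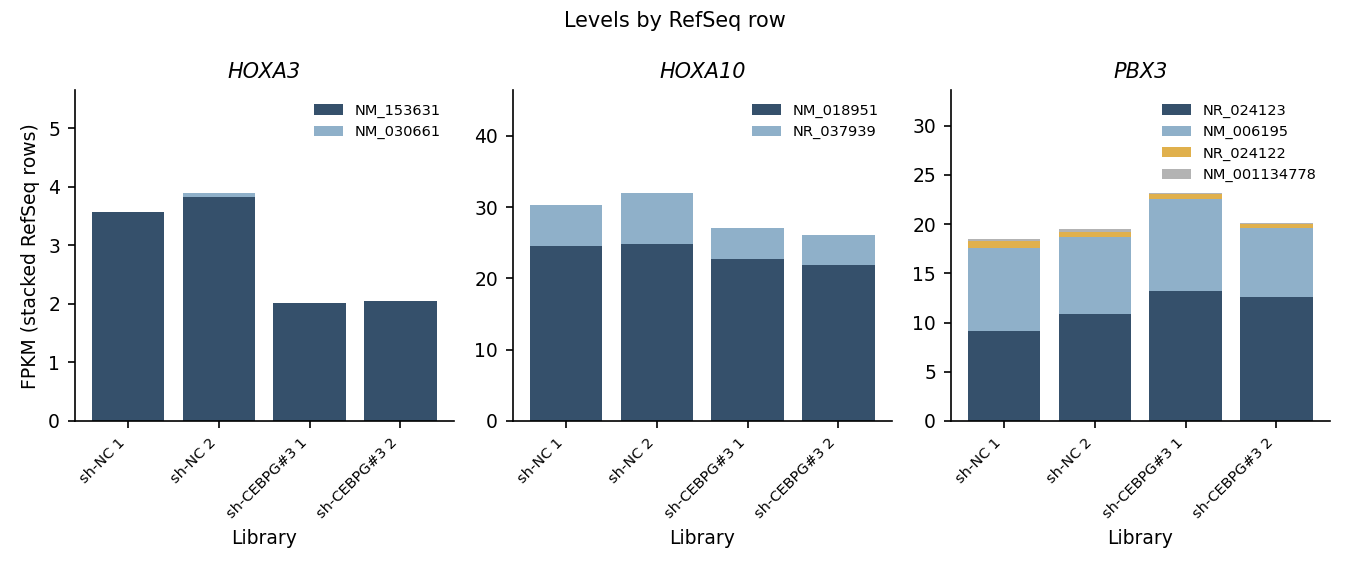
Stacked FPKM of the RefSeq rows of HOXA3, HOXA10 and PBX3 in each of the 4 libraries. NM_153631 carries almost all of HOXA3, both HOXA10 rows are lower upon knockdown, and in PBX3 the row NR_024123 is taller there while NM_006195 is not.

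The anterior and central members were less abundant, and their decreases were larger on average. HOXA3 had 3.57 and 3.90 FPKM in control cells against 2.02 and 2.05 FPKM upon knockdown, nearly all of it in NM_153631. The knockdown libraries almost coincided, and on the log2 scale HOXA3 fell by 0.64 (standard error 0.11, adjusted p = 0.000965 in limma). HOXA3 passed under all 8 alternatives and without each library in turn. Its annotated span includes HOXA4, HOXA5 and HOXA6, so reads of overlapping exons can be split between them.

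HOXA5, HOXA6 and HOXA7 varied more within the knockdown group. HOXA5 had 5.0 and 5.36 FPKM in control cells against 4.38 and 3.39 FPKM upon knockdown (log2 fold change -0.35, adjusted p = 0.0350 in limma). HOXA6 had 4.85 and 5.64 FPKM against 3.94 and 2.46 FPKM (-0.59, adjusted p = 0.0119 in limma). HOXA7 had 5.24 and 5.90 FPKM against 2.82 and 4.10 FPKM (-0.57, adjusted p = 0.00740 in limma). No group overlapped the other in these 3 genes, but sh-CEBPG#3 replicate 2 was the lower library for HOXA5 and HOXA6 and the higher one for HOXA7. Leaving out that replicate gave -0.20 for HOXA5 (adjusted p = 0.228 in limma) and -0.33 for HOXA6 (adjusted p = 0.0659). HOXA5 also did not pass without sh-NC replicate 2 (-0.31, adjusted p = 0.0836), while HOXA7 passed without each library in turn, from -0.78 to -0.36.

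**Figure D3:**
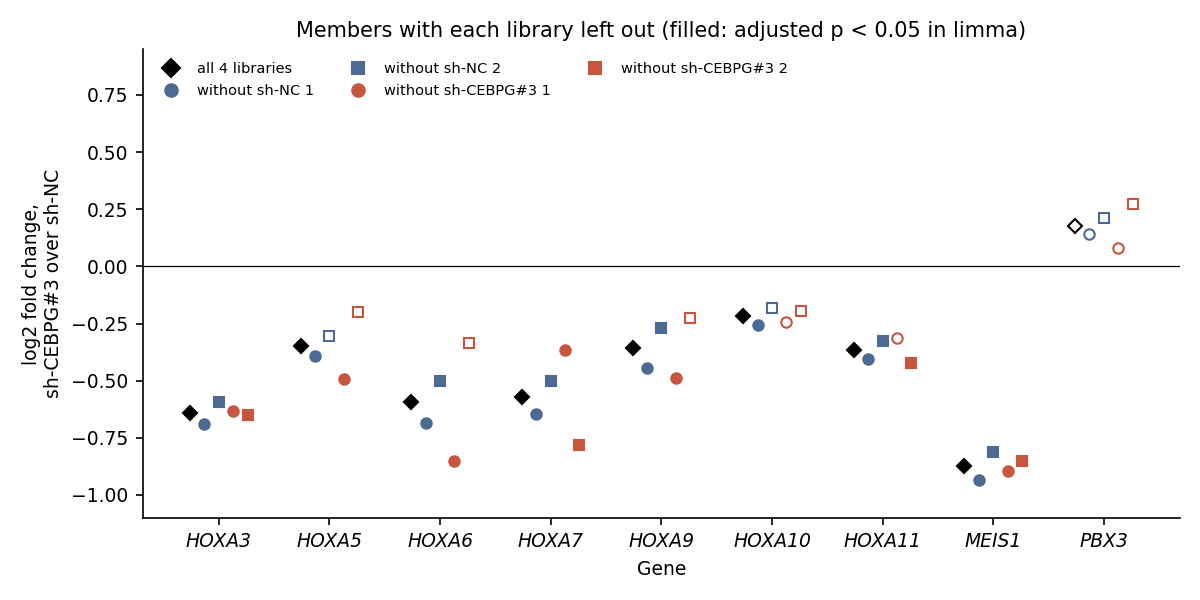
Log2 fold changes of the 9 genes with all 4 libraries and with each library left out, where filled symbols have an adjusted p under 0.05 in limma. MEIS1, HOXA3 and HOXA7 stay filled throughout, HOXA5, HOXA6 and HOXA9 move toward 0 without sh-CEBPG#3 replicate 2, and PBX3 is open throughout.

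In 8 of the 9 genes both sh-CEBPG#3 libraries lay below both sh-NC libraries, as they did in 40.2% of all genes tested. The median log2 fold change of the 9 genes was -0.37, against -0.04 over all genes tested. Since the HOXA genes are neighbours and some share exons, they are not independent of each other. In these bulk libraries, fewer cells expressing a gene and less RNA per cell cannot be told apart.

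The order of the levels changed little. In sh-NC cells HOXA9 and HOXA10 were highest and overlapped each other, followed by PBX3, HOXA11 and MEIS1, each separated from the next. HOXA7, HOXA6 and HOXA5 then overlapped in turn, and HOXA3 was lowest. In sh-CEBPG#3 cells HOXA10, HOXA9, PBX3 and HOXA11 were again the 4 highest and HOXA3 the lowest. MEIS1, which stood above HOXA7 in every control library, lay within the ranges of HOXA7 and HOXA6 after knockdown and overlapped that of HOXA5. The summed FPKM of the 7 HOXA genes was 92.6 and 101 in control cells against 77.8 and 71.5 upon knockdown, and HOXA9 plus HOXA10 made up 66.8% and 66.8% of it in the former and 71.5% and 69.5% in the latter. For each 100 FPKM of HOXA9 there were 21.1 and 20.6 FPKM of MEIS1 in control cells against 12 and 13.9 FPKM upon knockdown.

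Promoter windows of RefSeq (GRCh38.p14, the same primary assembly as the hg38 build of the deposited values) were read for 8 of the 9 members, HOXA5 not among them. A window runs from 250 bases before to 50 bases after an annotated start, and HOXA3 has 7 windows and HOXA10 has 2, giving 15. The windows below are those of MEIS1 (the largest decrease), HOXA9 (the highest level), HOXA10 (the single C/EBP match) and PBX3 (no decrease), printed 5′ to 3′ on the strand of the gene. Capitals mark matches, on either strand, to the C/EBP palindrome TTGCNNAA, the C/EBP-ATF composite element TGATGCAA, the CCAAT box, the PBX-HOX site TGATTNAT or the MEIS site TGACAG, and no matches overlapped.
MEIS1, chr2:66434875-66435174, plus strand: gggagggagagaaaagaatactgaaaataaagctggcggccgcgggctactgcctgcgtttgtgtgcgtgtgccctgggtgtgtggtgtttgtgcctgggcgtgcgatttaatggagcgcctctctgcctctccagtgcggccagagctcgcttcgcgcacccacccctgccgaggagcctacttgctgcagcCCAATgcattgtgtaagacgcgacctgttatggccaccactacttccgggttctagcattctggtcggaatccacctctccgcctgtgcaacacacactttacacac
HOXA9, chr7:27165488-27165787, minus strand: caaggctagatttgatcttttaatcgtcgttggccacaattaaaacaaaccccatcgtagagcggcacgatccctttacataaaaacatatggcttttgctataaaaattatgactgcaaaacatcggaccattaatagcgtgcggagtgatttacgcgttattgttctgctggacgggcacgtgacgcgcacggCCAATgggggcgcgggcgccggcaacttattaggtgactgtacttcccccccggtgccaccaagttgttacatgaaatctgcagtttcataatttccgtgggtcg
HOXA10, chr7:27174271-27174570, minus strand: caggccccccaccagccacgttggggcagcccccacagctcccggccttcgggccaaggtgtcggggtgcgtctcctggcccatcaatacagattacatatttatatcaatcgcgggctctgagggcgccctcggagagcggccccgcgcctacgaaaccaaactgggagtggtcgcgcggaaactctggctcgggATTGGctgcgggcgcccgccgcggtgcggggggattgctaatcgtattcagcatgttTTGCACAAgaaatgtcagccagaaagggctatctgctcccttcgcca
PBX3, chr9:125747933-125748232, plus strand: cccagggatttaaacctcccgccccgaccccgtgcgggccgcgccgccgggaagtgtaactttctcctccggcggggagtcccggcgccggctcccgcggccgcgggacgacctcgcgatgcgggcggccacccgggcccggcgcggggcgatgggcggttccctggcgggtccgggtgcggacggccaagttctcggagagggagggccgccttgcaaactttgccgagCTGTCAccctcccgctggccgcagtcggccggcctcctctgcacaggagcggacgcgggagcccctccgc

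CCAAT was found in 7 of the 15 windows and in 34.6% of all 34943 windows of this length. The 7 belong to MEIS1, HOXA3, HOXA6, HOXA7, HOXA9 and, with both of its windows, HOXA10. In HOXA9 and MEIS1 it began 55 and 57 bases before the start. TTGCNNAA was found in 1 of the 15 windows, that of HOXA10 shown above, where it began 3 bases after the annotated start, and in 10.5% of all windows. TGACAG was found in the PBX3 window alone, on the opposite strand, and in 15.8% of all windows. Neither TGATGCAA (0.87% of all windows) nor TGATTNAT (2.82%) occurred in any member window. A match describes these letters and is not evidence of binding.

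On GRCh38 the HOXA members lie on chromosome 7, from the lowest coordinate of HOXA3 at 27107010 to the highest coordinate of HOXA11 at 27185232. MEIS1 lies on chromosome 2 from 66435125 to 66573869 and PBX3 on chromosome 9 from 125747373 to 125967377. Among 12 other genes of the HOXA cluster 10 were listed and 7 were tested, with 4 lower and 1 higher at an adjusted p under 0.05 in limma. In the whole set of 12142 genes tested, 23.8% were lower and 18.5% higher. HOXA4 fell from a mean of 1.27 to 0.568 FPKM (log2 fold change -0.54) and HOXA13 from 8.63 to 6.06 FPKM (-0.45). The antisense RNA HOXA11-AS fell from 8.34 to 5.99 FPKM (-0.42), and HOTTIP, a long non-coding RNA at the posterior end that recruits MLL complexes, from 1.02 to 0.502 FPKM (-0.43). HOTTIP passed without sh-NC replicate 2, and not without any of the other 3 libraries (-0.51 to -0.34 with each library left out). It did not pass when the most abundant row stood for each gene (adjusted p = 0.0856 in limma). HOTTIP has a single row, so its fold change was the same in that fit.

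HOTAIRM1, a long non-coding RNA at the anterior end that is known to be induced as myeloid cells mature, moved the other way. It had 1.95 and 1.95 FPKM in control cells against 3.78 and 3.1 FPKM upon knockdown (log2 fold change 0.58, adjusted p = 0.00279 in limma). Its most abundant row alone gave 0.28 and did not pass (adjusted p = 0.285). HOXA-AS3 (-0.27) and HOXA10-AS (-0.13) did not pass, HOXA2 and HOXA-AS2 were listed below the filter, and EVX1 and MIR196B were not listed. The library kit does not mark strand, so reads of HOXA genes and of antisense RNAs that overlap them cannot be told apart.

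**Figure D4:**
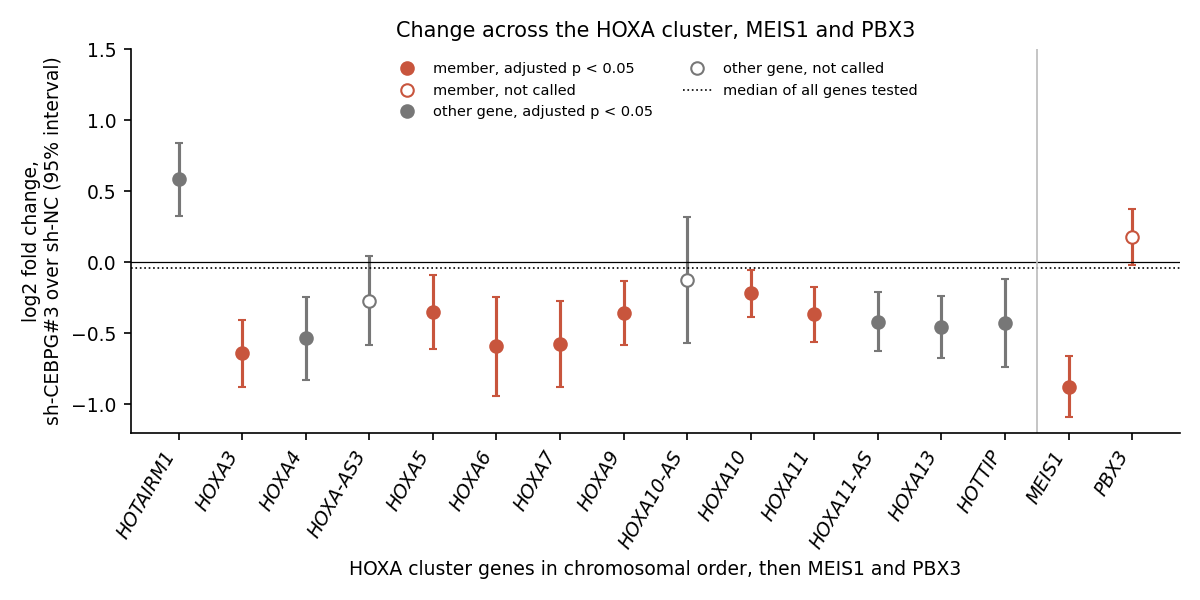
Log2 fold changes with 95% intervals from limma for the tested HOXA cluster genes in chromosomal order, then MEIS1 and PBX3, where members are red and filled points have an adjusted p under 0.05. From HOXA3 to HOTTIP all points lie below 0, HOTAIRM1 at the anterior end lies at 0.58, and MEIS1 is lowest at -0.87.

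Outside the HOXA cluster, 8 of 28 HOXB, HOXC and HOXD genes were listed and 6 were tested, of which 4 were lower. Over all genes tested 23.8% were lower and 18.5% higher. HOXC4 fell from a mean of 4.91 to 2.66 FPKM (log2 fold change -0.68), HOXC10 from 5.33 to 3.26 FPKM (-0.57) and HOXC5 from 0.936 to 0.303 FPKM (-0.58). The fourth, HOXC6, fell from 2.59 to 1.80 FPKM and did not pass without sh-NC replicate 1 or sh-CEBPG#3 replicate 2 (adjusted p = 0.157 and 0.102 in limma), nor with its most abundant row (0.464) or without the filter (0.0706). HOXC4 did not pass with its most abundant row (adjusted p = 0.0843 in limma), nor HOXC5 without sh-CEBPG#3 replicate 2 (adjusted p = 0.0507). Of 9 other TALE genes and partners 6 were tested, with 2 lower and 1 higher. MEIS2, the paralog of MEIS1, fell from a summed mean of 8.31 to 5.93 FPKM (-0.42, adjusted p = 0.00617 in limma), whereas its most abundant row had a log2 fold change of 0.53 (adjusted p = 0.224). TGIF1, a TALE repressor, fell from 15.1 to 12.7 FPKM (-0.23, adjusted p = 0.0386) and did not pass without any 1 of the 4 libraries. PBXIP1, which binds PBX proteins and restrains their DNA binding, rose from 12.5 to 18.5 FPKM (0.53, adjusted p = 0.000586). PBX2 (0.12), PKNOX1 (-0.28) and TGIF2 (-0.21) did not pass, PBX4 was under the filter, and MEIS3 and PKNOX2 were not listed.

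Of 20 genes of MLL complexes and their partners, 7 were lower, 2 were higher and 11 did not pass (median log2 fold change -0.05). Over all genes tested 42.2% were called, with 23.8% lower and 18.5% higher. PSIP1, which tethers menin and MLL to chromatin, fell from a mean of 24.8 to 13.8 FPKM (-0.81), HCFC1 from 27.1 to 18.0 FPKM (-0.56) and CCNT1, the cyclin partner of CDK9, from 8.15 to 5.65 FPKM (-0.46). CDK9 rose from 17.6 to 22.8 FPKM (0.35), and KAT7, a histone acetyltransferase, from 10.5 to 13.7 FPKM (0.35). Neither passed when the most abundant row stood for each gene (adjusted p = 0.0530 for CDK9 and 0.225 for KAT7 in limma). CDK9 has a single row, so its fold change was the same in that fit. Nor did CDK9 pass without sh-CEBPG#3 replicate 2 (log2 fold change 0.28), or KAT7 without sh-CEBPG#3 replicate 1 (0.29). KMT2A itself, chosen here after its values were seen, went from 3.02 to 1.98 FPKM (-0.43, adjusted p = 0.0116 in limma). It did not pass without sh-NC replicate 2 or sh-CEBPG#3 replicate 2 (adjusted p = 0.0563 and 0.0544) or with its most abundant row (0.108), and reads of the fusion transcript can count toward KMT2A or AFF1. Of 11 genes for Polycomb proteins, which silence HOX clusters, and for the KDM6 demethylases, which relieve that silencing, 2 were lower and none was higher. Both lower genes, RING1 (-0.48) and BMI1 (-0.47), encode Polycomb proteins.

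Of 8 factors that bind enhancers with HOXA9, 7 were tested, with 4 lower and 1 higher. ETS1 fell from a mean of 5.47 to 3.81 FPKM (-0.43), STAT5B from 13 to 10.1 FPKM (-0.34) and RUNX1 from 33.4 to 26.6 FPKM (-0.32). CEBPA, the fourth, fell from 263.6 to 214.9 FPKM (-0.29), and did not pass without either sh-CEBPG#3 library (-0.35 to -0.24 with each library left out). Its most abundant row was higher by 0.40 on that scale (limma, adjusted p = 0.668). That row differed widely between the sh-NC libraries (49.7 and 194.3 FPKM), against 132.2 and 128.9 FPKM upon knockdown. SPI1 rose from 119.9 to 150.7 FPKM (0.33). ETS1 and SPI1 did not pass with their most abundant rows (adjusted p = 0.0590 and 0.107 in limma). RUNX1 did not pass without sh-CEBPG#3 replicate 2 (adjusted p = 0.0826), nor SPI1 without sh-CEBPG#3 replicate 1 (adjusted p = 0.122). Among 22 genes known as targets of HOXA9, MEIS1 or MLL fusions 19 were tested, with 8 lower, 1 higher and 10 not passing (median log2 fold change -0.19). For both lists the share called over all genes tested was 42.2%. PIM1 had the largest decrease, from 59.7 to 20.5 FPKM (-1.50), followed by MYC from 232.6 to 138.0 FPKM (-0.75) and SOX4 from 9.70 to 6.51 FPKM (-0.51). HIF1A rose from 15.7 to 21.9 FPKM (0.46). Several textbook targets did not pass, such as FLT3 (90.3% of control, adjusted p = 0.161 in limma), MYB (94.7%, adjusted p = 0.427) and CDK6 (93.6%, adjusted p = 0.405). FLT3 passed as lower with equal totals (adjusted p = 0.0136), with quantile normalization (0.0134) and without sh-NC replicate 1 (0.0284), and MYB passed as lower with quantile normalization (0.00955).

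Of 16 genes of monocyte maturation 10 were tested, with 5 higher, 1 lower and 4 not passing, and a median log2 fold change of 0.32. The shares over all genes tested were 18.5% higher and 23.8% lower. LYZ rose from a mean of 588.6 to 3054 FPKM (2.37), CD68 from 49.8 to 110.7 FPKM (1.14) and ITGAX from 1.70 to 4.09 FPKM (0.92), while S100A9 fell from 71.8 to 43.8 FPKM (-0.70). The surface markers CD14 and CD163 stayed at or under 1.09 FPKM in every library, and FCN1 was listed at 0 in both sh-NC libraries. The part of these genes in the lower HOXA and MEIS1 levels was not tested.

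**Figure D5:**
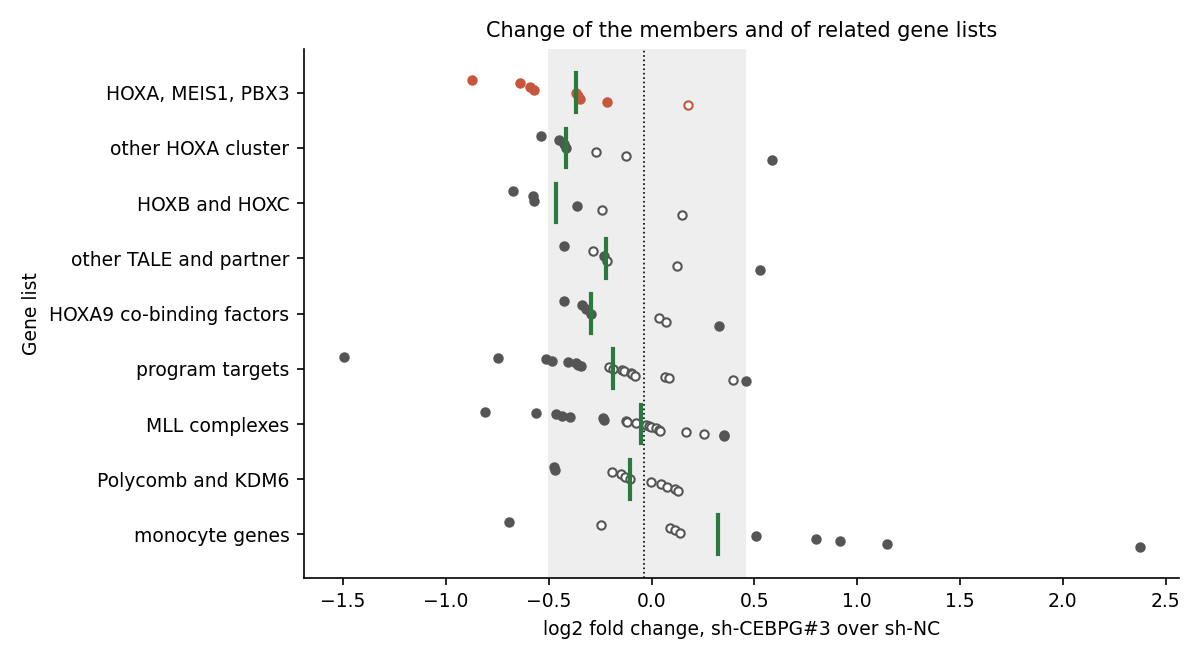
Log2 fold changes of the tested genes of each list, where filled points have an adjusted p under 0.05 in limma, green bars are list medians, the dotted line is the median of all genes and the grey band covers the 10th to 90th percentile of all genes (-0.50 to 0.45). The members have a median of -0.37, the MLL complex genes -0.05 and the monocyte genes 0.32.

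The genes whose pattern over the 4 libraries was closest to that of MEIS1 or HOXA9 were found among 6071 genes with a mean at or above 7.51 FPKM. Likeness was the root mean square difference of log2(FPKM + 1) after each gene's own mean was subtracted. For MEIS1 they were HAX1 (difference 0.012), GTPBP3 (0.013) and FARSA (0.013), and HAX1 for example had 82.8 and 89.2 FPKM in control cells against 47.4 and 46.5 FPKM upon knockdown. For HOXA9 they were SLU7 (0.022), ANXA2R (0.024) and ZBTB33 (0.025). With 4 libraries in 2 groups many genes have like patterns, and nothing is read from the resemblance.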

How the data were processed

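RNA-seq of MV4-11 cells was analysed, with 2 sh-NC and 2 sh-CEBPG#3 libraries grouped by their titles. Per the submitters' processing notes, reads were mapped to hg38 with HISAT2 2.0.5, and FPKM was deposited by the authors per library for every RefSeq transcript. The program that computed FPKM and the annotation version are not given in the sources used here.

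Of 28780 rows 28581 had values, and summing by symbol gave 16490 genes. The 12142 genes averaging 0.5 FPKM or more were tested on log2(FPKM + 1) with limma 3.58.1 in R 4.3.3 (lmFit, eBayes with a trend) and Benjamini-Hochberg adjustment over all of them. An exact permutation test of 2 against 2 libraries cannot go below p = 0.333, so the p-values rest on limma's model of variance across genes. Depth is unknown: of 1027 rows below 0.06 FPKM in both sh-NC libraries, at most 0.389% shared a ratio to 3 decimals, so no steps of whole reads were seen. No interval or floor from counts is given.

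The members and gene lists were chosen with earlier results of these data known. Named are all members, CEBPG, EIF4EBP1 and the listed genes of the HOXA cluster and TALE lists (some items are not reported here), up to 3 called genes per direction of each other list (limma, largest log2 fold changes), and the 3 genes closest in pattern to HOXA9 and MEIS1. HOXC6, CD33, FUT4, ITGAM, PTPRC, KMT2A, CEBPA, FLT3, MYB, CDK6, CD14, CD163 and FCN1 were named after their values were seen. EIF4EBP1 fell to 22.9% of control and is not described further. Other settings tried were a pseudocount of 0.1 or 0.01, testing without a filter or above a mean of 1 FPKM, equal totals, quantile normalization, the replicate number as a block, the most abundant row of each gene, and each library left out. Testing each row by itself was added after the data were seen.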

Additional observations from a re-analysis of the deposited data

How the results depend on the processing

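Of the 9 members, 8 passed limma (adjusted p under 0.05). This number was 3 with no filter and 3 with the most abundant RefSeq row of each gene (HOXA3, HOXA11 and MEIS1 both times), and 1 (MEIS1) with every row as its own feature, an alternative added once the data had been seen. It was 4 to 8 with each library left out, lowest without sh-CEBPG#3 replicate 2, where the lone library was assumed to vary like the other group. Under the other 6 alternatives it was 7 to 9. Without a filter 4093 of 16490 genes passed. HOXA5, HOXA6, HOXA7 and HOXA9 have a single row each, and their fold changes were the same without a filter and with the most abundant row. Their adjusted p-values were higher there. No change of direction occurred among the 9 members under these settings except in the single-row values of PBX3. No member passed the threshold with an absolute log2 fold change above 1, and 1 (MEIS1) did with a pseudocount of 0.1 (-1.04) and of 0.01 (-1.05). All genes past that threshold numbered 414, then 827 and 882 with those pseudocounts (128 lower and 286 higher at first, then 337 and 490, and 373 and 509), and 433 to 461 when single libraries were omitted. Genes at an adjusted p under 0.05 numbered 5128, 2864 with the most abundant row, and 3876 to 5001 when single libraries were omitted. Elsewhere, MEIS2 (-0.42) was 0.53 and CEBPA (-0.29) was 0.40 with the most abundant row, and HOXA10-AS (-0.13) ranged from -0.49 to 0.24 when single libraries were omitted. The median of all genes was -0.04, and -0.06 with equal totals and -0.02 with quantile normalization. For all of these the cause was not tested. The deviations of libraries that share a number correlated at 0.061 over genes, so the numbers were not taken to pair the samples. With the replicate number as a block 7 members and 4761 genes were called at an adjusted p under 0.05 in limma, 419 genes passed the threshold on the fold change, and HOXA10 did not pass (adjusted p = 0.138).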
